A study of Mus musculus with 10 samples.

Results

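Mouse mitochondrial DNA (mtDNA) carries 37 genes, and all 37 were present in the deposited gene table among 56691 genes in all. They were taken by symbol, as every gene whose symbol begins with mt-, and comprised 13 protein genes, 2 ribosomal RNA (rRNA) genes and 22 transfer RNA (tRNA) genes. RNA had been sequenced from the colon of male C57BL/6 mice that were 8 weeks old when obtained, with 5 mice in each of 2 groups. Mice of both groups drank 3% dextran sulfate sodium (DSS), a chemical that injures the colon lining, for 7 days. The DSS group is numbered DSS-1 to DSS-5, and the mice ceAF-1 to ceAF-5 were afterwards gavaged with chick early amniotic fluid (ceAF) at 15 mL/kg for 10 days. The 10 samples include no mice without DSS and no mice given mesalazine.

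Counts on genes totalled 16611021 in DSS-1, 19901549 in DSS-2, 16275884 in DSS-3, 16401674 in DSS-4 and 16426125 in DSS-5. In the ceAF group the totals were 14676471 in ceAF-1, 15568732 in ceAF-2, 18811795 in ceAF-3, 16058782 in ceAF-4 and 17108058 in ceAF-5. DSS-2 had the most counts and ceAF-1 the fewest, so the gene values below are shares of the counts of each mouse (percent, or CPM, the count scaled to a common library total) unless another scale is named.

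The proteins encoded by mtDNA are subunits of complexes I, III and IV of the respiratory chain and of ATP synthase, and the rRNAs and tRNAs serve their translation inside the mitochondrion. Nearly the whole circle is transcribed on each strand as long precursors, from which the tRNAs are excised, leaving the mRNAs and rRNAs between them. All other proteins of mitochondria, including the remaining subunits and the enzymes that copy, transcribe and process these RNAs, are encoded in the nucleus, and in the colon the epithelial cells are rich in mitochondria.

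The comparison of the ceAF group with the DSS group asked how the RNA of the injured colon differed after ceAF, here for the RNAs made from mtDNA. Together the 37 genes took 5.34% of all counts in DSS-1, 5.34% in DSS-2, 5.45% in DSS-3, 6.54% in DSS-4 and 5.06% in DSS-5. In the ceAF group they took 9.66% in ceAF-1, 5.64% in ceAF-2, 4.53% in ceAF-3, 7.24% in ceAF-4 and 9.74% in ceAF-5. ceAF-1, ceAF-4 and ceAF-5 lay above all DSS mice, ceAF-2 lay among them and ceAF-3 lay below all of them, so the groups overlapped. The mean share was 5.55% ± 0.576 in DSS mice and 7.36% ± 2.34 in ceAF mice (SD, n = 5), a difference of 1.81 percentage points that was smaller than the SD of the ceAF group. The 95% Wilson interval of the share was 4.52% to 4.54% in ceAF-3 and 9.73% to 9.75% in ceAF-5, so counting error was small beside the spread between mice; such intervals cover counting error only. In bulk tissue, fewer cells of a type and less RNA per cell cannot be told apart.

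The difference in share was not spread evenly over the genes. Of the 1.81 points, mt-Co1 accounted for 49.3%, mt-Cytb for 17.2% and mt-Nd5 for 11.7%. The other large parts were 9.34% from mt-Nd1, 6.29% from mt-Nd4, 5.39% from mt-Nd2 and 1.49% from mt-Nd6. These 7 genes are also those with the most counts among the protein genes, and mt-Co1 held 56.1% of the mitochondrial counts in DSS mice, more than its part in the difference. The part of mt-Co1 was 0.894 points with all mice and 0.472 without ceAF-1, where the whole difference was 1.24 points. The other 6 protein genes each gave less than 0.25% of the difference, mt-Tp gave 0.133%, and the rRNA genes together gave −1.27%. This last value rested on single mice, being −5.38% without ceAF-1 and −0.103% without ceAF-5. By complex, subunits of complex I took 1.46% ± 0.194 of all counts in DSS mice and 2.08% ± 0.702 in ceAF mice, and the complex IV subunits took 3.13% ± 0.329 and 4.03% ± 1.31 (SD, n = 5).

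**Figure D1:**
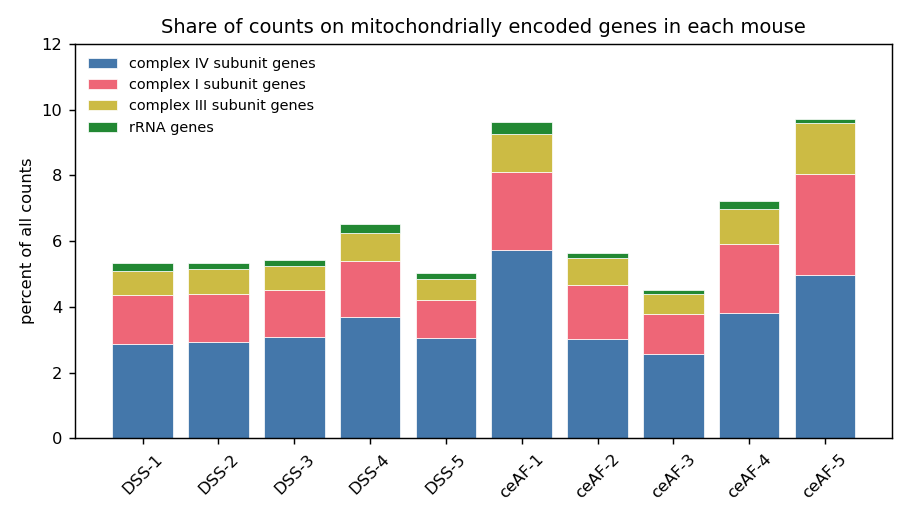
Percent of all counts of each mouse on the mitochondrially encoded genes, stacked by complex IV, complex I, complex III and rRNA genes, for 5 DSS and 5 ceAF mice. ATP synthase and tRNA genes, with group means between 0.00434% and 0.0108%, are too small to draw; ceAF-1 and ceAF-5 reach 9.66% and 9.74%, and ceAF-3 has the lowest bar at 4.53%.

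Of the 37 genes, 16 had enough counts to be tested: the 13 protein genes, both rRNA genes and mt-Tp, the tRNA gene for proline. Of the other 21, all tRNA genes, 20 had 0 counts in all mice. Fold changes and p-values below come from the two-sided edgeR quasi-likelihood test over 16545 genes, with TMM scaling and Benjamini-Hochberg adjustment, and the p-values measure the spread between these mice. At an adjusted p under 0.05 edgeR called 0 of the 16 mitochondrial genes, and it called 0% of all genes tested. DESeq2 called 26 genes, of which 0 were mitochondrial, and edgeR called 3 genes when DSS-5 was left out, also with 0 mitochondrial. At an unadjusted p under 0.05, 4 of the 16 were higher in the ceAF group in edgeR (25%, against 3.26% of all genes) and 0 were lower (3.67% of all genes). The 4 were mt-Nd2, mt-Atp8, mt-Nd4l and mt-Nd5, all with an adjusted p between 0.656 and 0.680. In the exact permutation test, 3 of the 16 were higher at an unadjusted p under 0.05 (18.8%, against 1.97% of all genes) and 0 were lower (4.55% of all genes). Their smallest possible p, from 252 assignments of the mice to groups, was 0.00794.

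In direction, 14 of the 16 genes had a log2 fold change above 0, or 87.5%, beside 51.4% of all genes tested. The median over the 16 was 0.42, and that over all genes 0.01. It was 0.27 for the 16 without ceAF-1, and in limma voom with sample quality weights it was 0.13, with 12 of the 16 above 0. In none of the 16 did all ceAF mice lie above all DSS mice in share of counts, as 0.332% of all genes did, and in none did all lie below, as 0.901% did. The count of 4 genes at an unadjusted p under 0.05 in edgeR rested on which mice were included. It was 10 without ceAF-3, 9 without ceAF-2 and 2 without ceAF-5, in each case all higher, where 3.70%, 3.84% and 2.59% of all genes were higher. mt-Nd5 and mt-Atp8 were in the list whichever mouse was left out, whereas limma voom with sample quality weights called mt-Nd5 alone, or 6.25% of the 16, below the 7.29% of all genes that it called higher. With only the library total for scaling, the same 4 mitochondrial genes were called, whereas over all genes 327 were higher and 746 lower, in place of 539 and 607 with TMM.

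The mice differed in how many genes carried their share. In ceAF-1 all 16 tested genes lay above all DSS mice, where 16.5% of all tested genes did. ceAF-5 had 13 of the 16 above all DSS mice (26.7% of all tested genes), the exceptions being mt-Nd3 and both rRNA genes. ceAF-4 had 12 (23.6%), all but mt-Co2, mt-Nd3 and both rRNA genes. In ceAF-2 only mt-Nd2, mt-Atp8, mt-Nd5 and mt-Nd6 were above all DSS mice, while mt-Rnr1, mt-Rnr2, mt-Co2 and mt-Co3 were below all of them, beside 12.9% and 15.8% of all tested genes. ceAF-3 had 0 genes above and 9 below all DSS mice, beside 12.3% and 21.9% of all tested genes. Relative to the DSS mean, the median gene stood at 1.72 in ceAF-1, 1.02 in ceAF-2, 0.814 in ceAF-3, 1.31 in ceAF-4 and 1.63 in ceAF-5. Within ceAF-1 the ratios ran from 1.42 for mt-Nd3 to 2.96 for mt-Atp8, and within ceAF-5 from 0.404 for mt-Rnr1 to 2.74 for mt-Nd5. Among the DSS mice, DSS-4 was above the other 4 in 13 of the 16 genes, and DSS-5 was below them in 9, beside 10.7% and 30.7% of all tested genes.

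mtDNA encodes 7 subunits of complex I, the NADH dehydrogenase that passes electrons to ubiquinone and pumps protons. The gene for the large proton-pumping subunit mt-Nd5 (ENSMUSG00000064367, bases 11742 to 13565 of chromosome MT) had 2812 CPM in DSS-1, 2808 in DSS-2, 2617 in DSS-3, 3065 in DSS-4 and 2071 in DSS-5. It had 5101 in ceAF-1, 3811 in ceAF-2, 2533 in ceAF-3, 5254 in ceAF-4 and 7323 in ceAF-5. All ceAF mice but ceAF-3 were above all DSS mice, and ceAF-3 lay within the DSS range. The log2 fold change was 0.86 ± 0.250 (SE), with p = 0.00558 and adjusted p = 0.656 in edgeR and p = 0.0397 in the exact permutation test. Left out in turn, no mouse took its unadjusted edgeR p above 0.0143, and its log2 fold change then ran from 0.69 without ceAF-5 to 1.02 without ceAF-3.

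mt-Nd2, another subunit of the membrane arm, had 2138 CPM in DSS-1, 2125 in DSS-2, 2050 in DSS-3, 2484 in DSS-4 and 1580 in DSS-5. The ceAF mice had 3319 in ceAF-1, 2608 in ceAF-2, 1872 in ceAF-3, 2977 in ceAF-4 and 4492 in ceAF-5. Here too ceAF-3 alone among the ceAF mice was within the DSS range, and ceAF-2 stood just above DSS-4. In the fit the log2 fold change was 0.57 ± 0.222 (SE), with p = 0.0257 and adjusted p = 0.680 in edgeR and p = 0.0635 in the exact permutation test. Its unadjusted edgeR p was above 0.05 without DSS-5, ceAF-1 or ceAF-5, where the log2 fold change was 0.50, 0.50 and 0.43. In limma voom with sample quality weights it was 0.30 for mt-Nd2 and 0.51 for mt-Nd5.

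The shortest of these subunits, mt-Nd4l, had between 8 and 26 counts in a mouse. In CPM the DSS mice had 0.783, 0.854, 0.676, 0.671 and 0.487 in the order DSS-1 to DSS-5, and the ceAF mice 1.16, 0.835, 0.744, 1.43 and 1.52 in the order ceAF-1 to ceAF-5. ceAF-1, ceAF-4 and ceAF-5 were above all DSS mice, and the other ceAF mice were within the DSS range. For mt-Nd4l the log2 fold change was 0.72 ± 0.270 (SE), with p = 0.0221 and adjusted p = 0.656 in edgeR and p = 0.0397 in the exact permutation test. Its unadjusted edgeR p was above 0.05 without ceAF-4 or ceAF-5, with log2 fold changes of 0.65 and 0.62, and in limma voom with sample quality weights the log2 fold change was 0.36. The RNA of mt-Nd4l is joined with that of mt-Nd4, and the 2 reading frames share 7 bases. They are shown from GENCODE M21 (GRCm38), with the 7 shared bases in capitals:
mt-Nd4l/mt-Nd4: ATGCTAA

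The other complex I subunits had unadjusted p-values above 0.05. mt-Nd1, which lies where the membrane arm meets the arm that takes up electrons, averaged 5775 ± 782 CPM in DSS mice and 7470 ± 2525 in ceAF mice (SD, n = 5). mt-Nd4 averaged 3215 ± 372 and 4356 ± 1489, with a log2 fold change of 0.46 ± 0.232 (SE). mt-Nd3 ran from 27 to 56 counts in a mouse, and its log2 fold change of 0.23 ± 0.258 was the smallest of the protein genes, with 0.10 without ceAF-1 and 0.40 without DSS-4. In limma voom with sample quality weights mt-Nd1, mt-Nd4 and mt-Nd3 had 0.07, 0.14 and 0.17. mt-Nd6, the protein gene on the light strand, averaged 817 ± 124 CPM in DSS mice and 1086 ± 328 in ceAF mice. The strand setting of the counting is not given in the sources used here, so RNA of mt-Nd6 and RNA of the opposite strand cannot be told apart.

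Cytochrome b, the subunit of complex III that carries electrons from ubiquinol, is encoded by mt-Cytb at bases 14145 to 15288. It had 7154 CPM in DSS-1, 7455 in DSS-2, 7155 in DSS-3, 8607 in DSS-4 and 6218 in DSS-5. It had 11669 in ceAF-1, 8038 in ceAF-2, 5927 in ceAF-3, 10786 in ceAF-4 and 15762 in ceAF-5. ceAF-1, ceAF-4 and ceAF-5 were above all DSS mice, ceAF-2 was within the DSS range and ceAF-3 was below it. Its fitted log2 fold change was 0.53 ± 0.251 (SE), with p = 0.0599 and adjusted p = 0.727 in edgeR and p = 0.111 in the exact permutation test. It was 0.37 without ceAF-5 and 0.19 in limma voom with sample quality weights.

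mtDNA encodes 3 subunits of complex IV, cytochrome c oxidase, which reduces oxygen to water. Its catalytic subunit mt-Co1 (ENSMUSG00000064351, bases 5328 to 6872) had the largest share of any mitochondrial gene in each mouse. That share of all counts was 2.87% in DSS-1, 2.91% in DSS-2, 3.06% in DSS-3, 3.68% in DSS-4 and 3.03% in DSS-5. In the ceAF group it was 5.69% in ceAF-1, 3.02% in ceAF-2, 2.56% in ceAF-3, 3.79% in ceAF-4 and 4.95% in ceAF-5. ceAF-1 and ceAF-5 stood far above the DSS mice, ceAF-4 was just above DSS-4, and ceAF-3 was below all DSS mice. With a log2 fold change of 0.40 ± 0.284 (SE), mt-Co1 had p = 0.191 and adjusted p = 0.822 in edgeR and p = 0.230 in the exact permutation test. Without ceAF-1 its log2 fold change was 0.18, and in limma voom with sample quality weights it was 0.09. The gene that gave the largest part of the difference in share was therefore not among the 4 with an unadjusted p under 0.05.

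mt-Co2, which takes electrons from cytochrome c, averaged 112 ± 16.4 CPM in DSS mice and 138 ± 59.6 in ceAF mice (SD, n = 5). Its log2 fold change was 0.34 ± 0.276 (SE) in edgeR but 0.00 without ceAF-1 and −0.07 in limma voom with sample quality weights. mt-Co3, the remaining core subunit, had between 49.4 and 70.8 CPM in the DSS mice. It had 134 in ceAF-1, 48.1 in ceAF-2, 45.3 in ceAF-3, 182 in ceAF-4 and 82.1 in ceAF-5. ceAF-4 was highest in mt-Co3, though not in the total share, and ceAF-2 and ceAF-3 were below all DSS mice. The log2 fold change was 0.76 ± 0.360 (SE) with all mice, 0.47 without ceAF-4 and 0.18 in limma voom with sample quality weights.

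ATP synthase makes ATP from the proton gradient, and mtDNA encodes its membrane subunits mt-Atp8 and mt-Atp6. mt-Atp8 had 18 counts in DSS-1, 33 in DSS-2, 15 in DSS-3, 19 in DSS-4 and 19 in DSS-5. It had 52 in ceAF-1, 28 in ceAF-2, 25 in ceAF-3, 33 in ceAF-4 and 34 in ceAF-5. As CPM, all ceAF mice but ceAF-3 were above all DSS mice, and the highest DSS value, 1.66 in DSS-2, lay between 1.33 in ceAF-3 and 1.80 in ceAF-2. Between the groups the log2 fold change was 0.87 ± 0.313 (SE), the largest of the 16 genes, with p = 0.0179 and adjusted p = 0.656 in edgeR and p = 0.0159 in the exact permutation test. Without ceAF-1 it was 0.56, with an unadjusted edgeR p of 0.0474, and limma voom with sample quality weights gave 0.47. For mt-Atp6 the log2 fold change was 0.37 ± 0.235 in edgeR, 0.16 without ceAF-1 and −0.03 in limma voom with sample quality weights.

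The end of mt-Atp8 and the start of mt-Atp6 share 43 bases in different reading frames, so a read inside them fits both genes. The shared stretch, bases 7927 to 7969 of chromosome MT in GENCODE M21 (GRCm38), has the start codon of mt-Atp6 in capitals:
mt-Atp8/mt-Atp6: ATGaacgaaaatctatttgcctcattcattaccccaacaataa

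Both rRNA genes lie near the start of the sequence, mt-Rnr1 for the small and mt-Rnr2 for the large ribosomal subunit. mt-Rnr1 had 1073 CPM in DSS-1, 593 in DSS-2, 906 in DSS-3, 1089 in DSS-4 and 893 in DSS-5. It had 1493 in ceAF-1, 479 in ceAF-2, 501 in ceAF-3, 801 in ceAF-4 and 368 in ceAF-5. ceAF-1 was above all DSS mice, ceAF-4 was within them, and ceAF-2, ceAF-3 and ceAF-5 were below all of them. The log2 fold change was −0.26 ± 0.384 (SE), with p = 0.516 and adjusted p = 0.935 in edgeR and p = 0.429 in the exact permutation test. Without ceAF-5 it was −0.07, and without ceAF-1 it was −0.78 with an unadjusted edgeR p of 0.00976. In limma voom with sample quality weights it was −0.565. In the fit without ceAF-1, mt-Rnr1 was the single mitochondrial gene called lower. mt-Rnr2 had the same mice high and low, and its log2 fold change was −0.00 ± 0.319, with either sign among the fits that left out a mouse. For mt-Rnr2 limma voom with sample quality weights gave −0.297. The libraries were made from RNA selected on oligo(dT) beads, so these values are of rRNA that passed that step.

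The tRNA gene mt-Tp lies last in the sequence, at bases 15356 to 15422 of the light strand, and had between 1243 and 2282 counts in a mouse. Its share averaged 83.9 ± 10.2 CPM in DSS mice and 108 ± 32.9 in ceAF mice (SD, n = 5), with ceAF-1, ceAF-4 and ceAF-5 above all DSS mice and ceAF-3 below. The log2 fold change was 0.39 ± 0.211 (SE), with p = 0.0903 and adjusted p = 0.742 in edgeR and p = 0.167 in the exact permutation test. Without ceAF-1 it was 0.21, and in limma voom with sample quality weights 0.13. As counting without a stated strand leaves RNA of either strand possible at this place, the counts of mt-Tp are not known to be of the tRNA. mt-Tc, chosen after its values were seen, was the sole other tRNA gene with a count, and it had between 0 and 6 in a mouse. Both are shown from GENCODE M21 (GRCm38), 5′ to 3′ on the light strand, as the tRNA genes that collected counts, with no part in capitals:
mt-Tp: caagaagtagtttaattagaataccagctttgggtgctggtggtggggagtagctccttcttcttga
mt-Tc: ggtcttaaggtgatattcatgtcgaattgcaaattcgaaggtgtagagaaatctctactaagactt

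The make-up of the mitochondrial counts, in which each gene is divided by the mitochondrial total of its mouse, was computed to set aside the size of that total. mt-Nd5 then took 5.26% in DSS-1, 5.26% in DSS-2, 4.80% in DSS-3, 4.68% in DSS-4 and 4.09% in DSS-5. It took 5.28% in ceAF-1, 6.75% in ceAF-2, 5.59% in ceAF-3, 7.26% in ceAF-4 and 7.52% in ceAF-5. All ceAF mice were above all DSS mice, though ceAF-1 only barely. Of the 16 tested genes 1 was so placed (6.25%), beside 0.0121% of all genes on the same scale. Other genes are divided there by a total they are no part of, whose mean share was higher in ceAF mice. This division lowers them in the ceAF group, so these percentages are not comparable and no conclusion is drawn from them. The means of mt-Nd5 were 4.82% ± 0.484 in DSS mice and 6.48% ± 0.998 in ceAF mice (SD, n = 5). As a share of the 13 protein genes alone, however, the groups overlapped, with 5.50% in ceAF-1 and 5.53% in DSS-1, and 4 ceAF mice above all DSS mice.

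In this make-up the rRNA genes had a lower mean share in the ceAF group. They took 4.62% of the mitochondrial counts in DSS-1, 3.19% in DSS-2, 3.73% in DSS-3, 4.08% in DSS-4 and 4.20% in DSS-5. They took 3.85% in ceAF-1, 2.57% in ceAF-2, 2.89% in ceAF-3, 3.13% in ceAF-4 and 1.13% in ceAF-5. All ceAF mice but ceAF-1 were below all DSS mice, and ceAF-1 was within them. The group means were 3.96% ± 0.537 and 2.71% ± 1.00 (SD, n = 5). mt-Co1 took between 50.8% and 60.0% of the mitochondrial counts in each mouse, with means of 56.1% ± 2.41 and 54.5% ± 3.28. The difference of −1.64 points between them was −0.669 without DSS-5, −0.730 without ceAF-5 and −2.76 without ceAF-1. ceAF-1 and ceAF-5, the mice with the largest totals, differed in make-up, since mt-Co1 took 58.9% in ceAF-1 and 50.8% in ceAF-5, and mt-Cytb 12.1% and 16.2%.

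**Figure D2:**
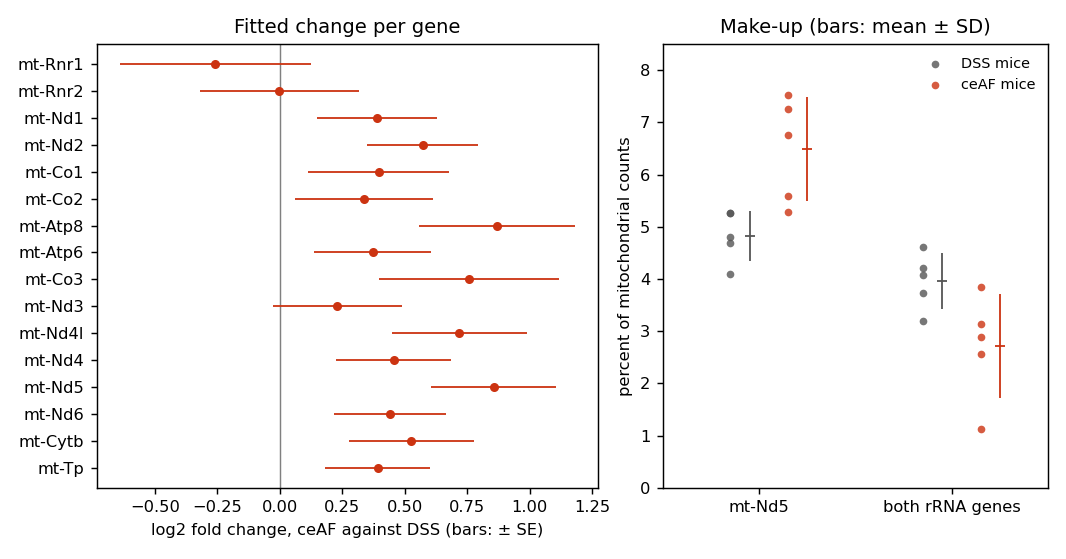
Left, log2 fold change (ceAF over DSS, edgeR) with its SE for the 16 tested mitochondrial genes; right, percent of mitochondrial counts on mt-Nd5 and on the rRNA genes, 1 point per mouse with mean and SD, n = 5 per group. The 2 rRNA genes are the genes at or below 0, and mt-Nd5 is the gene whose ceAF points all lie above the DSS points.

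Counts per length were compared as FPKM, the count divided by exonic length and library total. Among the protein and rRNA genes, in mean FPKM over the 10 mice, mt-Co1 was highest at 23019, followed by mt-Cytb at 7760, mt-Nd1 at 6920, mt-Nd4 at 2747, mt-Nd2 at 2471, mt-Nd5 at 2050 and mt-Nd6 at 1833. The rRNA genes followed with 858 for mt-Rnr1 and 799.6 for mt-Rnr2, and then mt-Co2 with 183, mt-Co3 with 100.4 and mt-Atp6 with 70.2. The tRNA gene mt-Tp, at 1433, stood between mt-Nd6 and mt-Rnr1. mt-Atp8 at 8.18, mt-Nd3 at 7.73 and mt-Nd4l at 3.09 were lowest. Within the groups the order differed at 3 places. In DSS mice mt-Nd6 at 1573 was above mt-Nd5 at 1466, and mt-Nd3 at 7.17 above mt-Atp8 at 5.86, and in ceAF mice mt-Rnr2 at 785 was above mt-Rnr1 at 763. On this scale the protein genes with low FPKM lay side by side along mtDNA, from mt-Co2 to mt-Nd4l. On either side of them, mt-Co1 and mt-Nd4 were far higher. mt-Nd4l and mt-Nd4, whose RNA is joined, had 3.09 and 2747. Whether low FPKM here reflects less RNA was not tested.

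**Figure D3:**
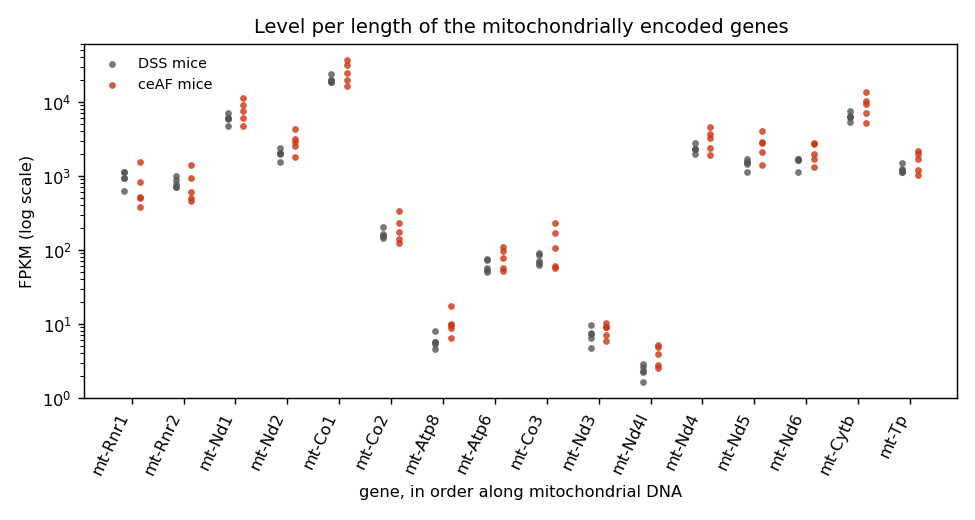
FPKM on a log axis for the 16 tested mitochondrial genes in their order along mtDNA, 1 point per mouse, grey for DSS and red for ceAF. The stretch from mt-Co2 to mt-Nd4l is the low part, with mean FPKM from 3.09 to 183, and mt-Co1 is the highest at 23019.

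All genes of the low stretch but mt-Atp8 have a nuclear copy of nearly their whole length among the transcripts of GENCODE M21. These 5 protein genes are identical over at least 95% of their length to a pseudogene on chromosome 1, and had mean FPKM from 3.09 to 183, whereas the other 8 had from 8.18 to 23019. Of those 8, mt-Co1, which had the highest FPKM, has such a copy on chromosome 2, Gm13340, with 97.6% of its bases identical. The 5 pairs are mt-Co2 with Gm28661, mt-Co3 with Gm28437, mt-Atp6 with Gm10925, mt-Nd3 with Gm28438 and mt-Nd4l with Gm10222. The alignment of mt-Co2, mt-Co3, mt-Atp6 and mt-Nd4l with their copies was 100% identical, over 681, 783, 678 and 294 bases. How the counting program treated reads that fit several places is not given in the sources used here, so the division of counts between a gene and such a copy is uncertain. Only GENCODE M21 transcripts were searched, so a copy with no annotated transcript, of mt-Atp8 or of another gene, would have been missed. For mt-Nd3 the alignment of 345 bases holds a single difference, T3C, with positions counted from 1 at the 5′ end of the mitochondrial gene. The starts of both are shown from GENCODE M21 (GRCm38), with that base in capitals, since a read that misses it fits both:
mt-Nd3: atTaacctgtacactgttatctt
Gm28438: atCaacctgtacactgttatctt

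Other matches were partial or less alike. mt-Cytb and mt-Nd6, both with high FPKM, matched pseudogenes on chromosome 4 over nearly their whole length, Gm11410 with 92.9% identity over 1142 bases and Gm11408 with 93.6% over 519. mt-Nd2 matched Gm13339 with 96.7% identity over 510 bases. The first 876 bases of mt-Nd4 are identical to Gm28439, and mt-Atp8 shares with Gm10925 only the 43 bases it has in common with mt-Atp6. The alignment of mt-Co1 with Gm13340 spans 1545 bases, and 483 bases at the end of mt-Co1 match Gm29216 on chromosome 1 except at A1066T, counted in the same way. mt-Co2 has a second copy on chromosome 2, Gm13341, with 95.9% identity. The best match of mt-Nd5 had 95.2% identity over 954 bases, and mt-Nd1, mt-Rnr1 and mt-Rnr2 had no match of at least 90% among these transcripts. The surroundings of the difference in mt-Co1 are shown from GENCODE M21 (GRCm38), with the base in capitals:
mt-Co1: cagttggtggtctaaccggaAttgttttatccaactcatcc

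The counts of each of the 5 genes and its copy were also added together, a sum chosen after the values were seen. The mitochondrial gene held between 57.2% and 62.3% of the sum for mt-Co2, and between 14.2% and 59.1% for mt-Nd4l. For mt-Nd4l with Gm10222 the sum was 1.32, 6.03, 1.72, 2.13 and 1.03 CPM in DSS-1 to DSS-5 and 3.0, 2.18, 1.54, 3.05 and 3.33 in ceAF-1 to ceAF-5. DSS-2 was then the highest of all mice and no ceAF mouse was above all DSS mice, with a ratio of means of 1.07. Without DSS-2 that ratio was 1.69, and 4 ceAF mice were above all other DSS mice. For the other 4 sums the ratio of means was 1.25 for mt-Atp6, 1.26 for mt-Co2, 1.48 for mt-Co3 and 1.67 for mt-Nd3. Without ceAF-1 the sum for mt-Co2 had 1.05, and without DSS-2 that for mt-Nd3 had 2.17. Without these 5 genes, an alternative chosen after seeing the data, the mitochondrial share differed by the same 1.81 points, as together they take 0.0217% of counts in DSS mice and 0.0294% in ceAF mice.

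Counts were summarised for a list of 10 pseudogenes chosen by symbol or description, which leaves out some of the matches found by sequence; 9 were tested and Gm29215 had 0 counts in all mice. In edgeR, 0 of the 9 passed at an adjusted p under 0.05, 2 were higher at an unadjusted p under 0.05 (22.2%, against 3.26% of all genes) and 0 lower. In the exact permutation test 1 of the 9, Gm13341, was higher, where 1.97% of all genes were, and 0 lower. Their median log2 fold change was 0.65 in edgeR, 0.33 without ceAF-1 and 0.03 in limma voom with sample quality weights. The 2 were Gm13341, which had only between 9 and 24 counts in a mouse, and Gm28439. Their log2 fold changes were 0.85 ± 0.255 (SE) and 0.69 ± 0.248. In limma voom with sample quality weights they had 0.76 and 0.34, and Gm28439 had an unadjusted p above 0.05 there, in the exact permutation test and in edgeR without ceAF-5. The copies summed to 217, 315, 231, 323 and 236.0 CPM in DSS-1 to DSS-5 and to 460.4, 233, 182, 914 and 395 in ceAF-1 to ceAF-5. ceAF-4 was far above all others, with 619 of its 914 CPM on Gm29216, which had between 20.6 and 82.3 in the other mice. Gm29216 had a log2 fold change of 1.72 ± 0.914 (SE) that rested on ceAF-4, with −0.31 without that mouse and a p of 0.746 in the exact permutation test. In edgeR with all mice Gm13340 had one of 0.65, Gm28438 of 1.05, Gm28661 of 0.44, Gm10925 of 0.33, Gm28437 of 0.31 and Gm10222 of −0.24, which was 0.74 without DSS-2. Without ceAF-1, Gm13340, Gm28661 and Gm28437 had 0.33, 0.10 and 0.15. Gm28438 had 1.79 without DSS-2, 0.66 without ceAF-4 and 0.30 in limma voom with sample quality weights. In limma voom with sample quality weights Gm10925, Gm28437, Gm10222 and Gm29216 were below 0, at −0.10, −0.13, −0.69 and −0.20.

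The nuclear genes whose products work with those of mtDNA were counted in the same edgeR fit, where 0 in any list had an adjusted p under 0.05. None of the 36 complex I, 4 complex II, 9 complex III, 11 complex IV and 17 ATP synthase subunits had an unadjusted p under 0.05 in either direction in edgeR. In the exact permutation test 3 complex I subunits (Ndufb3, Ndufa2 and Ndufa3) and 1 complex III subunit (Uqcrh) were lower at an unadjusted p under 0.05, as 4.55% of all genes were. None was higher, as 1.97% of all genes were. The median log2 fold changes of the 5 lists were −0.10, −0.04, −0.02, −0.12 and −0.03, and the median of the tested mitochondrial protein genes was 0.46. In the fits that left out a mouse, these medians ran from −0.21 to −0.02 for complex I, −0.12 to 0.05 for complex II, −0.16 to 0.10 for complex III, −0.27 to −0.04 for complex IV and −0.12 to 0.06 for ATP synthase. Those of complexes II and III and of ATP synthase were above 0 without ceAF-4 or without DSS-4. For complex I, the nuclear subunits summed to 2580, 2908, 3002, 3259 and 3023 CPM in DSS-1 to DSS-5 and to 3129, 2869, 2453, 2288 and 3053 in ceAF-1 to ceAF-5. No ceAF mouse was above all DSS mice in this sum, and ceAF-4, which had a high mitochondrial share, had the lowest sum. Among the complex I subunits the smallest edgeR p-values were those of Ndufb3, Ndufa2 and Ndufa3 (log2 fold changes −0.23, −0.32 and −0.24). Within complex II the smallest was that of Sdhd with −0.10, and within complex III that of Uqcrh with −0.33. It was that of Cox8a with −0.17 within complex IV and of Atp5k with −0.34 within ATP synthase. Uqcrc2 of complex III, with a smaller p-value than Cox8a, was higher at 0.17.

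Among 24 genes that transcribe and maintain mtDNA, 0 had an unadjusted p under 0.05 in edgeR, with a median of 0.10. Polrmt, the mitochondrial RNA polymerase, had a log2 fold change of 0.23 ± 0.189 (SE) and Tfam, which packages mtDNA and starts its transcription, −0.12 ± 0.110. Of 33 genes for RNA processing and stability, 2 were higher at an unadjusted p under 0.05 (6.06%, against 3.26% of all genes) and 0 lower (against 3.67%), with a median of 0.10. They were Ptcd3, with 0.35 ± 0.139, and Pnpt1, the polynucleotide phosphorylase, with 0.54 ± 0.227. Lrpprc and Slirp, which together bind and stabilize mitochondrial mRNAs, had 0.19 ± 0.120 and −0.12 ± 0.159. Translation factors and tRNA synthetases had 2 of 32 higher (6.25%) and 0 lower in edgeR, with a median of 0.13. The 2 were the initiation factor Mtif2 with 0.28 ± 0.099 and the histidyl-tRNA synthetase Hars2 with 0.23 ± 0.094. In the exact permutation test 2 of the 32 were higher, among them Mtif2, and 0 lower, whereas Hars2 had p = 0.0794. Of 78 mitoribosomal proteins, 2 were higher and 2 lower (2.56% each, below the shares of all genes) with a median of −0.04, among them Mrps22 with 0.39 ± 0.139, Mrps12 with −0.36 ± 0.137 and Mrpl12 with −0.28 ± 0.119. In the exact permutation test 1 mitoribosomal gene was higher and 5 were lower at an unadjusted p under 0.05, where 1.97% and 4.55% of all genes were. The 7 regulators of biogenesis (median 0.05, Ppargc1a 0.30 ± 0.310) and 15 membrane and matrix proteins (median 0.02) had 0 in either direction in edgeR. In the exact permutation test 1 of the 15 was lower at an unadjusted p under 0.05, Tomm22 with a log2 fold change of −0.22. Among fits without 1 of the mice, medians ran from 0.05 to 0.15 for transcription and maintenance, 0.08 to 0.15 for RNA processing and 0.07 to 0.22 for translation. They ran from −0.08 to 0.03 for mitoribosomal proteins, 0.01 to 0.15 for regulators of biogenesis and −0.05 to 0.08 for membrane and matrix proteins, so the sign of the mitoribosomal and membrane medians rested on the mice included.

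RNAs that poly(A) selection treats differently were counted as well. Of 10 nuclear RNAs without a usual poly(A) tail that were in the table, 1 was tested, Rn18s-rs5, with a log2 fold change of 0.30 ± 0.243 (SE) in edgeR, 0.04 without ceAF-1 and −0.01 in limma voom with sample quality weights. With more of the list tested, its median was −0.16 without the filter and −0.21 in DESeq2. It had 848, 1008, 887, 976 and 576 CPM in DSS-1 to DSS-5 and 1559, 832, 937, 788 and 1019 in ceAF-1 to ceAF-5. ceAF-1, the mouse with the highest share of mitochondrial rRNA, also had the highest value here, whereas ceAF-5 with the lowest was only just above the DSS mice. The 4 tested RNAs that stay in the nucleus, among them Malat1 with 0.18 ± 0.125, had a median of 0.16, which was −0.10 without ceAF-5, and 0 of 4 at an unadjusted p under 0.05.

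Marker genes of some cell types also differed between the groups. All 5 T cell markers were lower in the ceAF group at an unadjusted p under 0.05 in edgeR, where 3.67% of all genes were, and all 5 in the exact permutation test, where 4.55% were; 0 passed at an adjusted p under 0.05. They summed to 73.0, 75.8, 79.0, 75.6 and 28.0 CPM in DSS-1 to DSS-5 and to 23.4, 36.1, 29.8, 17.6 and 22.6 in ceAF-1 to ceAF-5, with Cd3g the most abundant. DSS-5 was at the level of the ceAF mice in these markers and lowest of the DSS mice in mitochondrial share. All 4 neutrophil markers were lower at an unadjusted p under 0.05 in edgeR and 0 in the exact permutation test, with sums of 1305, 12.9, 154, 14.8 and 66.7 in DSS-1 to DSS-5 and 1.43, 11.8, 11.5, 34.9 and 19.5 in ceAF-1 to ceAF-5, and S100a9 was the most abundant. Of 5 macrophage markers 2 were lower in edgeR and 1 in the exact permutation test, and the list, led by C1qb, summed to 152, 103, 110, 107 and 74.5 and to 29.0, 86.8, 98.7, 71.0 and 88.4 in the same order. None of these markers was at 0 in all mice. Their part in the mitochondrial share was not tested.

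The epithelial markers, of which Krt8 was the most abundant, had 0 of 11 at an unadjusted p under 0.05 in edgeR. They summed to 17411, 21537, 24611, 23140 and 14135 CPM in DSS-1 to DSS-5 and to 25788, 20147, 20829, 17016 and 18056 in ceAF-1 to ceAF-5. ceAF-1 had the highest epithelial sum and a high mitochondrial share, whereas ceAF-5, with the highest mitochondrial share, had an epithelial sum below 3 of the DSS mice. ceAF-1 was also lowest of all mice in the sums of fibroblast markers (144 CPM), B and plasma cell markers (76.0), endothelial markers (21.6) and macrophage markers (29.0). The part of these markers in its mitochondrial share was not tested. The markers of smooth muscle (Myh11 the most abundant), fibroblasts (Col3a1), endothelium (Pecam1), enteric neurons and glia (Uchl1), B and plasma cells (Jchain), erythrocytes (Hbb-bs, 2 of 5 tested) and adipocytes (Fabp4, 2 of 4 tested) also had 0 at an unadjusted p under 0.05 in either direction. In the endothelial and in the erythrocyte sum, 4 ceAF mice were below all DSS mice and ceAF-4 was not, and the median log2 fold changes were −0.31 and −1.28.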

How the data were processed

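The authors deposited, for each mouse, counts per gene without normalization and FPKM, which a check on the values of all genes showed to be the same counts divided by exonic length and library total, within 0.01. Libraries were poly(A)-selected with oligo(dT) beads and primed with random primers. The submitters' processing notes list cutadapt 1.9.1 and HISAT2 2.2.1; the counting program, genome build, annotation and strand setting are not given in the sources used here. Mice were grouped by their labels, 5 DSS and 5 ceAF. All 37 mitochondrial genes have the same position and length in GENCODE M21 (GRCm38), whereas 2.76% of the other shared genes have the same position, so only mitochondrial positions are printed.

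Genes were kept by filterByExpr of edgeR 4.0.16 in R 4.3.3 (minimum count 10), scaled by TMM and compared by the two-sided quasi-likelihood test with Benjamini-Hochberg adjustment over all genes kept. Shares, FPKM and two-sided exact permutation tests of the mean share were computed in Python 3.11.15 with pandas 2.3.3, NumPy 2.4.6 and SciPy 1.17.1. Shares of counts divide by the untrimmed library total. No test was made of the total mitochondrial share or of a list. Mitochondrial genes were aligned to GENCODE M21 transcripts by BLAST 2.17.0, and matches of at least 90% identity were kept; the nuclear copies whose counts are given are a separate list, chosen by symbol or by description in the table. Figures were drawn with matplotlib 3.10.9.

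The mitochondrial genes and all lists were chosen with earlier results of these data known. Genes were named by a rule: all mitochondrial protein and rRNA genes, tRNA genes and nuclear copies with a mean count of at least 10, from each nuclear list the 3 tested genes with the smallest p, always Polrmt, Tfam, Lrpprc, Slirp and Ppargc1a, and from each marker list the most abundant gene; not every gene under the rule is printed. Alternatives were other scalings (RLE, upper quartile, library total, TMM without mitochondrial genes), no filter or a minimum count of 50, a robust fit, DESeq2 1.42.0, voom with quality weights and limma-trend on log2 FPKM with pseudocounts of 1 and 0.1 (limma 3.58.1), the replicate number as a block, other definitions of the share, and leaving out each mouse.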

Additional observations from a re-analysis of the deposited data

Results flagged for a closer look

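Within each group, 136 sets of 5 values were examined for a mouse far from the other 4, and 18 had one, where about 6.8 would arise at 1 in 20; 6 of the 18 were DSS-5. The total of DSS-2, 19901549 counts, stood apart from 16275884 to 16611021 in the other DSS mice. DSS-4 stood apart in mitochondrial share, with 6.54% against 5.06% to 5.45%, and in mt-Co1, with 36765 CPM against 28728 to 30576. DSS-5 was low in mt-Nd6, with 595.5 CPM against 856 to 889. Among its mitochondrial counts DSS-5 had 3.12% on mt-Nd2 (3.76% to 4.0% in the others), 5.47% on mt-Nd4 (5.81% to 5.90%) and 0.140% on mt-Co3 (0.0924% to 0.105%).

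Nuclear copies also had such mice. DSS-2 had 5.17 CPM on Gm10222, against at most 1.46 in the other DSS mice, and 8.59 on Gm28438, against at most 2.47. Gm29216 had 82.2 in DSS-4, against at most 40.9, and 619 in ceAF-4, against at most 61.0 in the other ceAF mice. Of the nuclear lists, RNA processing and stability summed to 1010 CPM in ceAF-5 (at most 914.6 in the other ceAF mice), and biogenesis regulators to 538.5 in DSS-5 (at most 439.5).

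Marker sums in CPM stood apart for fibroblasts in DSS-1 (1114, others at most 522.0), endothelium in DSS-1 (99.7, others at most 62.5), neutrophils in DSS-1 (1305, others at most 154) and T cells in DSS-5 (28.0, others at least 73.0). The erythrocyte sum of ceAF-4 was 31.7, against at most 7.09 in the other ceAF mice.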

How the results depend on the processing

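The difference in mitochondrial share was 1.81 points and stayed positive in every alternative; as a percent of summed FPKM it was 3.98 points, a scale that weights short genes more. The number of mitochondrial genes higher at an unadjusted p under 0.05, 4 in edgeR, was 2 with a minimum count of 50, which left 13 mitochondrial genes tested, 5 in the robust fit, 6 in DESeq2 and without the filter, and 2 to 10 when a mouse was left out. In voom with quality weights it was 1, or 6.25% of the 16, where 7.29% of all genes were higher; in the other fits of counts with all mice that share was between 1.98% and 3.26%. With the replicate number as a block 2 genes were higher, and the replicate numbers do not show pairing, since libraries of the same number correlated between −0.249 and 0.286. DESeq2 called 26 genes over the whole table at an adjusted p under 0.05, and leaving out a mouse gave 0 to 3 in edgeR; 0 mitochondrial genes passed in any alternative. The log2 fold change of mt-Rnr2 was 0.003 without the filter and −0.39 to 0.16 when a mouse was left out. In voom with quality weights the log2 fold change was −0.066 for mt-Co2 and −0.031 for mt-Atp6, and the median over mitochondrial genes was 0.13. The cause of these shifts was not tested.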

Other observations

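mt-Nd4l, mt-Atp8 and mt-Nd3 had at most 56 counts in a mouse, so counting error is largest for them. Division of counts between mitochondrial genes and near-identical nuclear copies, and between strands, cannot be read from the table. With 5 mice per group, the share of the ceAF group had an SD of 2.34 points, larger than the difference of 1.81.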
